A study of Mus musculus with 14 samples.

Results

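Heme biosynthesis enzymes were described here in the livers of mice fed a Western diet with or without erythrodiol, a triterpene alcohol of olive. They were chosen by gene symbol, as Alas1, Alas2, Alad, Uros, Urod, Cpox, Ppox and Fech. All 8 were found among the 17552 genes of the deposited gene table, and all 8 had at least 100 counts in both groups together. Both groups were male Apoe-deficient mice of the C57BL/6 strain by the labels, C57BL/6J by the paper, which lack apolipoprotein E and are used as a model of atherosclerosis. The labels give an age of 8 weeks and a diet of 8 weeks, and the paper states a longer time on the diet. Control mice received the Western diet alone. Erythrodiol mice received the same diet with the compound added, at a dose that the paper states as 10 mg per kg of mouse. Each group was sequenced as 7 libraries of liver poly(A) RNA, each a pool of a few mice, so that single animals were not measured. For genes, 1 expected count per group was deposited, the sum over its 7 libraries. There were thus no replicates for any gene, no test between groups was possible, and each interval given for a gene is a 95% counting interval that does not hold the spread between pools or mice.

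Heme is made from glycine and succinyl-CoA by enzymes placed in the mitochondrion and in the cytosol. The pathway begins with 5-aminolevulinate synthase, its rate-limiting step, which exists as a housekeeping form, Alas1, and an erythroid form, Alas2, encoded on the X chromosome. It ends with ferrochelatase, Fech, which inserts iron into protoporphyrin. The liver is the main site of heme synthesis outside the bone marrow, and it places much of that heme in cytochromes P450. Hepatic Alas1 is known to be repressed by heme and induced by fasting and by drugs, whereas Alas2 is driven in erythroid cells by the factor GATA1.

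The 2 first-step genes differ in the sequence near their start sites, which is shown because the report compares them throughout. Sequences are those of RefSeq on GRCm38.p6, printed 5′ to 3′ on the strand of the gene. In Alas1, on the minus strand, the stretch chr9:106247906-106247935 holds GCGCATGCGC in capitals, the longest run around the starts of this gene that reads the same on both strands and the binding letters of the mitochondrial regulator NRF1. In Alas2, on the plus strand, the stretch chrX:150547167-150547374 ends just before the first transcript start of the GENCODE annotation, at 150547375. It holds 1 match to the GATA letters, in capitals, read on the opposite strand.
Alas1: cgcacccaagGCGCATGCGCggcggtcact
Alas2: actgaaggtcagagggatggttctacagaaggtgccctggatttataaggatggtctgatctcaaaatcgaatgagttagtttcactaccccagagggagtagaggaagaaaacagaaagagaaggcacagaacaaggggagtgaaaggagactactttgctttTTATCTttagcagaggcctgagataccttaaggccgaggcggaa
The Alas1 match began 195 bases before the RefSeq start at 106247730 and 29 bases after the other RefSeq start of the gene at 106247954, so it lay upstream of some transcripts and inside the first exon of others. The Alas2 match began 86 bases before its RefSeq start.

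Both sets of letters were searched on both strands of the 300 bases around each RefSeq start, 250 before it and 50 after. Windows were found for 7 of the 8 enzymes. GCGCATGCGC was present in 0.971% of the 32851 windows of all genes, and among the enzymes in Alas1. The GATA letters, which were AGATAA and AGATAG together with TGATAA and TGATAG, were present in 29.8% of all windows, and among the enzymes in Alas2, Uros and Cpox. A match describes letters and does not show that a factor binds there.

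The count of Alas1 was 26953 in the control and 44015 with erythrodiol, the largest difference of the 8 enzymes on the log2 scale. Per kilobase of gene length and per 1000000 counts of the group, the scale used for all levels here, Alas1 was at 80.8 in the control and 130.1 with erythrodiol. The log2 ratio of erythrodiol to control, each group scaled by its total count, was 0.69 (counting interval 0.66 to 0.71), a fold of 1.61. Over the 13291 genes with at least 100 counts the median log2 ratio was not 0 but 0.16, and relative to that median Alas1 was at 0.52. Of all these genes, 1.19% had a higher log2 ratio than Alas1. The gene, number 11655 in the files, lies at chr9:106233455-106247954 on the minus strand of GRCm38.p6.

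Alas2 was close to level between the groups. Its count was 16672 in the control and 17475 with erythrodiol. Its level was 68.7 in the control and 70.9 with erythrodiol, and its log2 ratio was 0.05 (counting interval 0.02 to 0.08), which turned to -0.12 relative to the median of all genes. Alas2 (gene number 11656) lies at chrX:150547417-150570622 on the plus strand. In RefSeq it lies within the span of Apex2, a gene for a DNA repair nuclease, which was counted 872 times in the control and 973 times in the erythrodiol group, far fewer than Alas2.

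The difference between the forms was larger than counting error. The log2 ratio of Alas1 exceeded that of Alas2 by 0.64 (counting interval 0.60 to 0.68), a value that no scaling of the group sums can move. The level of Alas1 was 1.18 times that of Alas2 in the control and 1.83 times with erythrodiol. In the control the erythroid form was therefore nearly as abundant in this liver RNA as the housekeeping form, and with erythrodiol the forms stood further apart. In bulk liver, fewer cells of a type and less RNA per cell cannot be told apart, and the reads of Alas2 carry no record of the cells they came from.

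The plot of levels by group shows the enzymes in the order of the pathway.

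**Figure D1:**
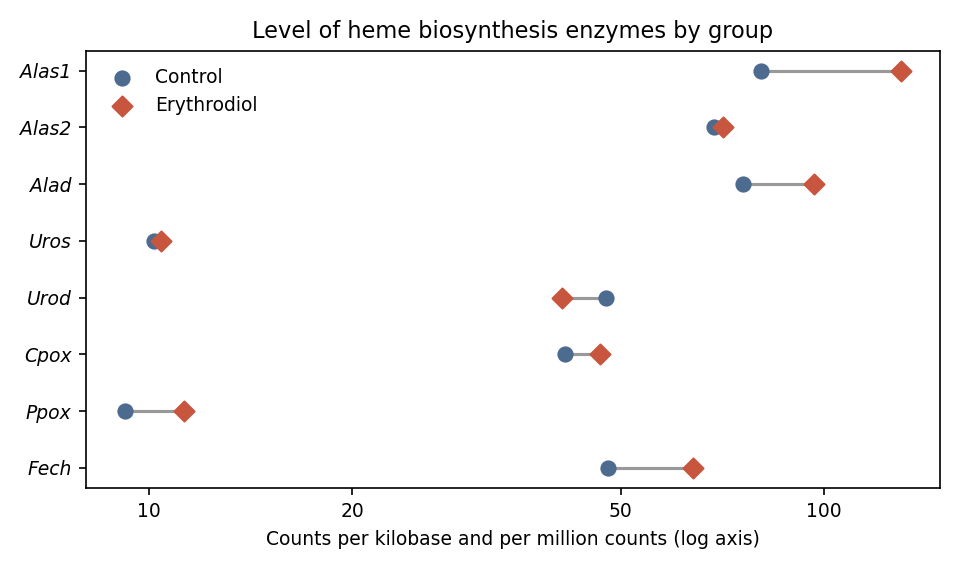
Level of each enzyme in counts per kilobase and per 1000000 counts on a log axis, with 1 pooled value for the control (circle) and 1 for erythrodiol (diamond), joined by a line and without replicates. Alas1 moved from 80.8 to 130.1, Alas2 went from 68.7 to 70.9, Urod was lower with erythrodiol, and Uros and Ppox lay far below the others in both groups.

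The cytosolic enzymes that follow the first step did not move together. Alad, aminolevulinate dehydratase, which joins the product of the first step into the pyrrole porphobilinogen, was counted 14993 times in the control and 19351 times in the erythrodiol group. Its level went from 76.0 to 96.7, and its log2 ratio was 0.35 (counting interval 0.32 to 0.38), or 0.19 relative to the median of all genes. Alad was thus above the median of all genes on either scale, second in level to Alas1 in both groups.

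Uros, uroporphyrinogen III synthase, closes the ring of 4 pyrroles. It was counted 2117 times in the control and 2198 times in the erythrodiol group, with levels of 10.2 and 10.4. Its log2 ratio of 0.03 had a counting interval from -0.05 to 0.12, so it lay within counting error of 0. Relative to the median of all genes the ratio turned to -0.13. Uros was the 1 enzyme of 8 whose interval held 0. Its span in RefSeq overlaps 1135 bases of Bccip, a gene with 6502 counts in the control and 6268 with erythrodiol, and the protocol in the labels names no step that marks the strand, so reads of that overlap are uncertain. The deposited counts of Uros were whole in both groups and thus show no fractional division of reads.

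Urod, uroporphyrinogen decarboxylase, whose loss of activity in liver is known from porphyria cutanea tarda, was the 1 enzyme with a lower value with erythrodiol. It was counted 8532 times in the control and 7447 times in the erythrodiol group, and its level went from 47.6 to 40.9. The log2 ratio was -0.22 (counting interval -0.26 to -0.17), or -0.38 relative to the median of all genes. Of the 13291 genes, 13.5% had a lower ratio than Urod, so a value of this size was common in the table. With the sum of Ppib and Tbp in place of the total counts, its ratio turned to 0.33, and Ppib, a cyclophilin, itself had a log2 ratio of -0.59 while Tbp, the TATA-binding protein, had 0.31.

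At the end of the pathway, Cpox, Ppox and Fech were higher with erythrodiol by unequal amounts after scaling by total counts, and Cpox turned to -0.03 when set against genes of like length. Cpox, coproporphyrinogen oxidase, was counted 16176 times in the control and 18510 times in the erythrodiol group, with levels of 41.3 and 46.6. Its log2 ratio of 0.17 (counting interval 0.14 to 0.20) was 0.01 relative to the median of all genes and so stood at the middle of the table. Counts were deposited with up to 2 decimals, and Cpox was the 1 member of 8 whose counts were not exactly whole in both groups, which RSEM gives where reads are divided between sequences.

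Ppox, protoporphyrinogen oxidase, was counted 2326 times in the control and 2888 times in the erythrodiol group, with levels of 9.21 and 11.3. Its log2 ratio was 0.29 (counting interval 0.21 to 0.37), or 0.13 relative to the median of all genes. Ppox was the least abundant of the enzymes in the control, and in the erythrodiol group Uros took that place.

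Fech, the last enzyme, stood after Alas1 in the size of its ratio. It was counted 17048 times in the control and 23154 times in the erythrodiol group, and its level went from 47.9 to 64.1. The log2 ratio was 0.42 (counting interval 0.39 to 0.45), a fold of 1.34, or 0.26 relative to the median of all genes. Of all genes, 11.4% had a higher ratio than Fech.

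Counted over the 8 enzymes, 7 had a log2 ratio above 0, against 71.2% of all genes with at least 100 counts. Relative to the median of all genes, 5 were above and 3 below. Over 25% higher with erythrodiol were 3 of 8, Alas1, Fech and Alad, against 24.4% of all genes. Over 20% lower, the same fold in the other direction, was 0 of 8, against 8.89% of all genes. None of the 8 passed 2-fold in either direction, as 0.767% of all genes did. The count of enzymes above 0 was thus near the share of all genes, and the median log2 ratio of the 8, at 0.23, lay between the median of all genes and their upper quartile of 0.32. Summed over the 8, the level was 381.6 in the control and 470.99 with erythrodiol. Without Alas2 it was 313.0 and 400.1.

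In both groups the order of levels began with Alas1, Alad, Alas2 and Fech. In the control, Urod followed Fech, and their levels of 47.6 and 47.9 had overlapping counting intervals, the 1 pair of neighbours in that order that did not differ beyond counting error. With erythrodiol, Cpox and Urod changed places. The level of Urod was 1.15 times that of Cpox in the control and 0.878 times with erythrodiol. Uros and Ppox also changed places, with Uros at 1.11 times the level of Ppox in the control and 0.924 times with erythrodiol. With erythrodiol, no neighbours in the order had overlapping counting intervals, although that of Ppox, from 10.9 to 11.7, nearly met that of Uros, from 9.99 to 10.9. The spread between pools was not known for any of these levels. The changes of place are also not corrected for the increase of the log2 ratio with gene length, described next. In both pairs the gene that moved up was the longer one, Cpox with 3186 bases against 1460 for Urod, and Ppox with 2055 against 1692 for Uros.

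The log2 ratio in this table increased with gene length. Its median was 0.01 over the 4426 shortest genes, 0.17 over the 4431 genes of middle length and 0.28 over the 4434 longest. The enzymes are short to middling, from 1460 bases for Urod to 3186 for Cpox. Each was therefore set beside the 500 genes nearest to it in length.

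**Figure D2:**
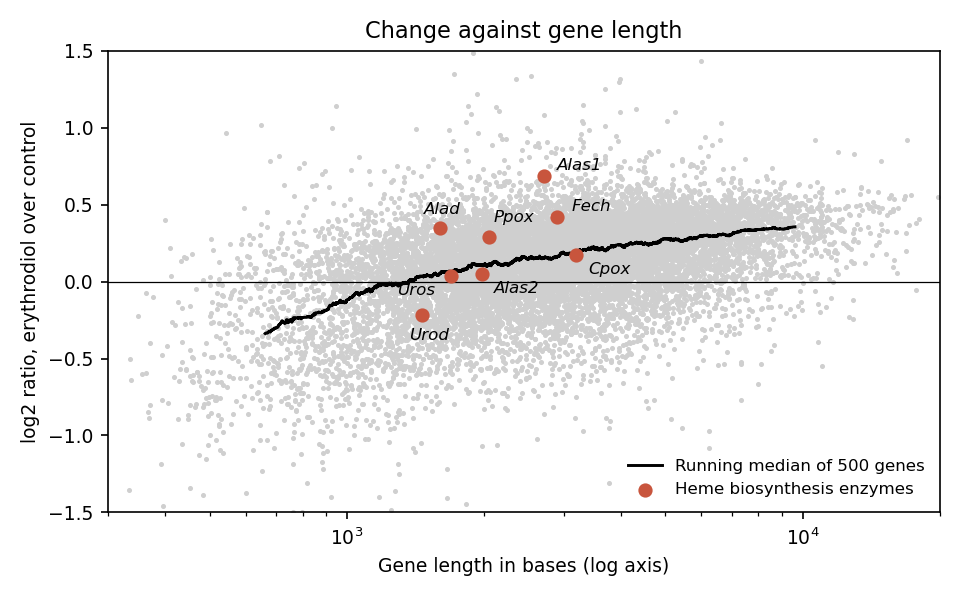
Log2 ratio of erythrodiol to control against gene length in bases on a log axis, with genes of at least 100 counts in grey, the running median of 500 genes as a line and the 8 enzymes in red. Genes beyond 1.5 in either direction are outside the axis. Alas1, Fech, Alad and Ppox lie above the line, Cpox, Alas2 and Uros lie near it, and Urod lies below it.

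Among genes of like length the enzymes fell into 3 sets. Alas1, Alad, Ppox and Fech were above the central 50% of their neighbours, Alas2, Uros and Cpox were within it, and Urod was below it. Alas1 exceeded the median of its neighbours by 0.53 on the log2 scale, and 5 of the 500 had a higher ratio. Alad exceeded its own by 0.29, with 51 of 500 higher, and Fech by 0.26, with 48 of 500 higher. Ppox exceeded the median of its neighbours by 0.18, and 95 of the 500 had a higher ratio.

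Against their own neighbours, Alas2 was at -0.06, Uros at -0.03 and Cpox at -0.03, so that all 3 were slightly negative on this scale. Alas2 and Uros were already negative relative to the median of all genes, at -0.12 and -0.13, while Cpox was at 0.01 there and turned negative with the comparison by length. Of the 500 neighbours, 298 had a higher ratio than Alas2, 281 than Uros and 274 than Cpox. Urod was at -0.25, with 381 of its 500 neighbours higher. After this step 4 of the 8 enzymes were above genes of like length and 4 below. Alas1 and Alas2 still differed by 0.60 on the log2 scale.

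**Figure D3:**
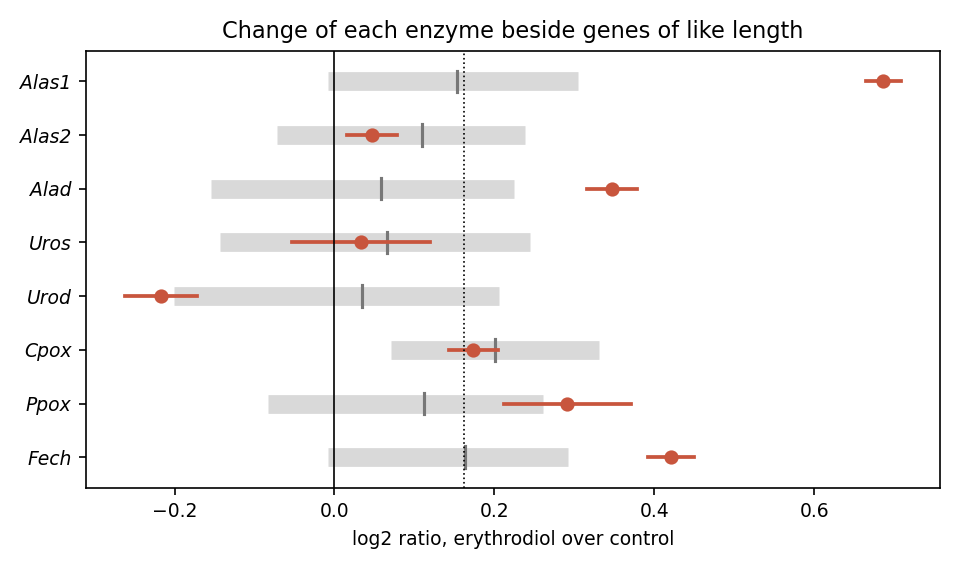
Log2 ratio of erythrodiol to control for each enzyme (red point) with its 95% counting interval (red line), the central 50% (grey bar) and median (grey tick) of the 500 genes nearest in length, 0 (solid line) and the median of all genes (dotted line). Alas1, at 0.69, stands farthest to the right of its grey bar, and Urod, at -0.22, is the 1 enzyme left of its bar.

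Assembled coding transcripts without a reference entry were deposited as 1 set for all libraries, which carries no group. They were present for 2 of the 8 enzymes, Ppox and Uros, while 28.5% of the 17552 genes had at least 1. Ppox and Uros were also the members with the lowest levels. The 3 transcripts of Ppox span chr1:171276991-171281192 on the minus strand. They have 11, 11 and 12 exons. Both with 11 exons keep, inside an exon, the 927 bases at chr1:171278196-171279122 that are an intron of GENCODE transcripts, and the transcript with 12 exons removes them. All 3 keep another annotated intron of 294 bases, at chr1:171279575-171279868. One of them has an intron that GENCODE does not list, of 116 bases at chr1:171280272-171280387.

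The 2 transcripts of Uros, on the minus strand of chromosome 7, have 9 exons each and end at the same base, 133686142. They begin at 133709295 and at 133710510, with different first exons. Both keep an intron of 492 bases, at chr7:133690594-133691085, inside an exon. All 8 introns of each are listed in GENCODE. None of the 16 deposited splicing events that differed between the groups lay in any of the 8 enzymes.

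Genes that carry heme, its precursors and iron across membranes stood close to all genes. All 16 of that list had at least 100 counts, and 15 were above 0 on the log2 scale, against 71.2% of all genes. Only 8 were above the median of all genes, and the median of the list was 0.19 against 0.16 over all genes. Over 25% higher were 3 of 16, against 24.4% of all genes, and over 20% lower 0, against 8.89%. The highest was Slc25a37, mitoferrin 1, which brings iron into the mitochondrion, with 5795 counts in the control and 8184 with erythrodiol and a log2 ratio of 0.48. The lowest was Abcg2, an exporter of porphyrins, at -0.28, and the gene with the most counts was Pgrmc1, a heme-binding membrane protein, at 0.07, which turned to -0.09 relative to the median of all genes.

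Of 12 known regulators of Alas1, 11 were above 0, against 71.2% of all genes. Above the median of all genes were 10, and the median log2 ratio of the list was 0.31. The 12 genes run up to 6380 bases in length. Relative to genes of like length their median was 0.11, with 9 of 12 above 0. Over 25% higher were 4 of 12, against 24.4% of all genes. Foxo1, a factor of the fasting response, was highest at 0.52, and at 0.26 relative to genes of like length. Hnf4a, a hepatocyte factor and the gene of the list with the most counts, was at 0.21. Clpx, part of the mitochondrial protease that degrades the Alas1 protein, was lowest at -0.18, with 20625 counts in the control and 18499 with erythrodiol. Nrf1, named here for its binding letters in Alas1 and not by the rule for genes, had a level of 2.50 in the control and 3.11 with erythrodiol and a log2 ratio of 0.32.

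Genes of heme removal were more often below 0 than above it. Of the 5 genes of heme degradation, 2 were above 0, against 71.2% of all genes. Above the median of all genes was 1, and the median of the list was -0.13. Over 25% higher was 1 and over 20% lower was 1, against 24.4% and 8.89% of all genes. Ugt1a1, which conjugates bilirubin, was the highest at 0.39 and had the most counts, and Blvra, biliverdin reductase A, was the lowest at -0.39. Hmox1, the inducible heme oxygenase, was at a level of 37.7 in both groups. Of the 5 genes of heme scavenging, 2 were above 0, with a median of -0.43. Over 25% higher were 2 of 5, against 24.4% of all genes, and over 20% lower 3 of 5, against 8.89%. Hpx, hemopexin, which binds free heme in plasma, had the most counts and the lowest ratio, with a level of 5171 in the control and 3239 with erythrodiol and a log2 ratio of -0.67. Cd163, the macrophage receptor for hemoglobin bound to haptoglobin, was the highest at 0.58, from 211 counts in the control and 321 with erythrodiol.

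Liver proteins that carry heme had no common direction. Of 18, 11 were above 0, against 71.2% of all genes, and 9 above the median of all genes, with a median of 0.12. Over 25% higher were 5 of 18, or 27.8%, against 24.4% of all genes, and over 20% lower were 5 of 18, against 8.89%. The gene with the most counts, Cyp2e1, was at 0.30. Cyp2b10 was highest at 1.61, from 43.2 counts in the control and 134 with erythrodiol, and Cyp2b13 was lowest at -3.66, from 335.9 and 27.0 counts. In the paper's RT-qPCR of single mice, the change of Cyp2b10 was significant and that of Cyp2b13 was not. The control standard deviation of Cyp2b13 there was larger than its control mean. Genes of the Cyp2b family are alike in sequence, and the division of reads among them is uncertain.

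The lists of erythroid, granulocyte, platelet and Kupffer cell markers had medians below 0 in the same libraries, with single genes of the erythroid and platelet lists above 0, and their part in the values of Alas2 and the other enzymes was not tested. Of 25 erythroid markers, 23 were in the table and 11 had at least 100 counts. Of these 11, 4 were above 0, against 71.2% of all genes, and 7 were below 0. Above the median of all genes were 2, and the median of the list was -0.30. Over 20% lower were 4 of 11, against 8.89% of all genes, and over 25% higher 2 of 11, against 24.4%. Relative to genes of like length the median of the list was -0.03, and the globin genes in it have 569 to 646 bases. The summed level of the list was 1885 in the control and 1333 with erythrodiol. Hbb-bs, a beta globin with the most counts over both groups together, had a level of 708.4 in the control and 430.6 with erythrodiol and a log2 ratio of -0.72. Hbb-bt, another beta globin, was lowest at -1.03, and Sptb, a spectrin of the red cell membrane, was highest at 0.48, from 235 counts in the control and 333 with erythrodiol. Globin genes share near-identical copies, so their single values are uncertain.

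Over the 4 globin genes Hba-a1, Hba-a2, Hbb-bs and Hbb-bt together, the level was 1863 in the control and 1314 with erythrodiol, a log2 ratio of -0.50, while Alas2 was at 0.05. Relative to genes of like length, Hbb-bs was at -0.43 and Hbb-bt at -0.75, but Hba-a1 was at 0.03 and Hba-a2 at -0.0041, so that the alpha globins stood near the median of genes of like length. By level, Alas2 stood at 36.9 per 1000 of globin level in the control and 54.0 with erythrodiol. These 2 values are not corrected for the increase of the log2 ratio with gene length. Relative to genes of like length Alas2 was at -0.06, near the alpha globins and above the beta globins. Some defining genes of erythroid precursors were at or near 0. Gata1 had 3 counts in the control and 1 in the erythrodiol group, at or under the floor of 3 counts. Klf1, an erythroid transcription factor, was higher in count, with 301 and 328. In 7 of the 23 erythroid genes at least 1 group had 3 counts or fewer, and in 3 of them a group had 0.

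All 5 Kupffer cell markers, genes of the resident macrophages of the liver that recycle heme, were over 20% lower, against 8.89% of all genes, with a median log2 ratio of -0.65 and a summed level of 407.9 in the control and 251.8 with erythrodiol. The gene with the most counts was Cd5l at -0.70, and the range ran from -1.07 for Marco to -0.48 for Timd4. Of 9 granulocyte markers, 3 had at least 100 counts, from -1.11 for S100a9 to -3.18 for Prtn3. All 3 were past 2-fold lower, against 0.767% of all genes past 2-fold in either direction. Relative to genes of like length, S100a9 was at -0.78 and S100a8 at -0.85, within 2-fold, and Prtn3 was at -3.05. In the paper's RT-qPCR of single mice, Prtn3 was also significantly lower, but its control standard deviation was larger than its control mean. The summed level of the granulocyte list was 23.0 in the control and 9.37 with erythrodiol. Of 5 megakaryocyte and platelet markers, 3 had at least 100 counts, and their values ran from -1.02 for Ppbp to 0.24 for Itga2b, with a median of -0.68 and a summed level of 3.87 in the control and 2.49 with erythrodiol. Hepatocyte markers, which define liver, were present at high levels in both groups. Of 6 hepatocyte markers, 5 were above 0, against 71.2% of all genes, and 4 were above the median of all genes. Their median was 0.27, from -0.06 for Alb, which had the most counts, to 0.65 for Pck1. Their summed level was 50403 in the control and 50519 with erythrodiol.

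**Figure D4:**
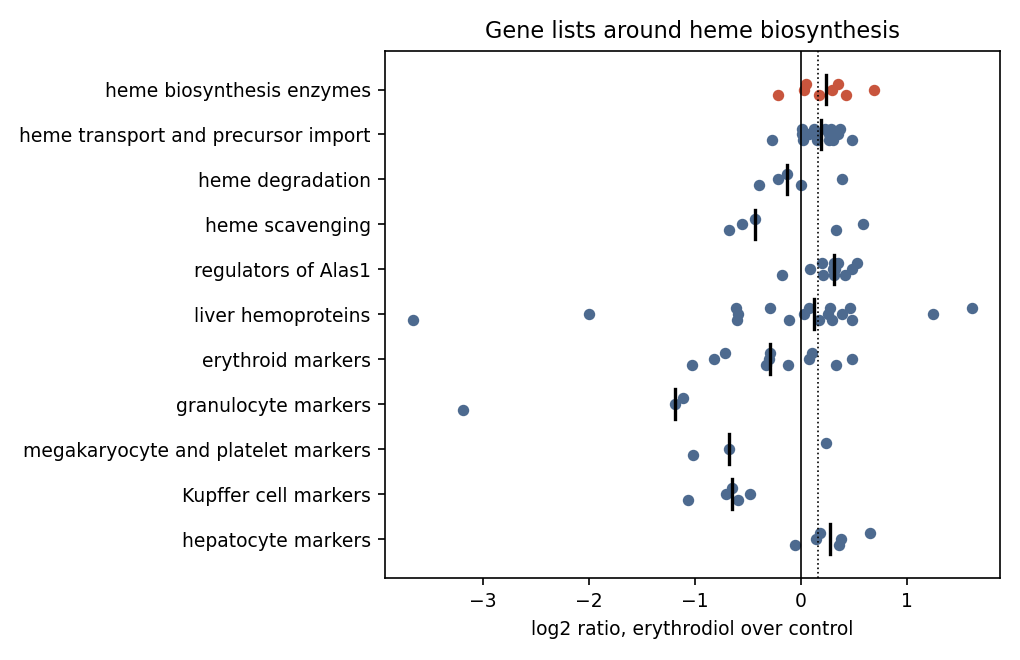
Log2 ratio of erythrodiol to control for each gene with at least 100 counts (point) in the enzymes and in 10 lists around them, with the median of each list (black tick), 0 (solid line) and the median of all genes (dotted line). The enzymes center at 0.23, regulators of Alas1 at 0.31, erythroid markers at -0.30 and Kupffer cell markers at -0.65.

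Control libraries held from 34856340 to 55244294 clean reads and erythrodiol libraries from 47669656 to 48058606. By their mapping rates, each control library gave from 9.12% to 17.3% of the read pairs mapped to genes in its group, and each erythrodiol library from 13.9% to 14.6%. Group sums were 122889032 and 124686047 counts. Control replicates 1, 3 and 4 had between 51.4% and 54.2% of reads mapped to a unique gene, below the other 4 control libraries, from 60.9% to 67.1%, and every erythrodiol library, from 57.9% to 65.3%. They gave 39.4% of the mapped read pairs of the control group, and their part in the values of the enzymes was not tested. The share of an enzyme's count that came from any 1 library is not known. The gene Apoe, inactivated in both groups, still had a level of 60.6 in the control and 52.7 with erythrodiol, which does not tell a targeted transcript from an intact one. The paper reports that RT-PCR of liver RNA found no Apoe expression in its Apoe-deficient mice.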

How the data were processed

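Paired-end sequencing of liver poly(A) RNA gave 7 control and 7 erythrodiol libraries, and groups were taken from the labels. HISAT, StringTie, Cufflinks, GATK, Bowtie2 and RSEM are named in the submitters' processing notes, without versions. Each gene has a length and, for each group, an expected count, which the authors deposited unnormalized and summed over the libraries. The authors deposited counts of clean reads and mapping rates in percent for each library. The log2 ratio, p-value and q-value that the authors deposited hold their own comparison and were not used, nor was a short example table with no library named.

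Counts were divided by the total of the group for the ratio, and also by length for the level. A group at 0 was given 0.5 counts. Intervals at 95% are conditional binomial (Clopper-Pearson) for a ratio, Poisson for a level and from the log odds ratio for Alas2 against Alas1, and they cover counting error only. With 1 value per group no test was made, and genes were counted as over 25% higher, over 20% lower (the same fold) or past 2-fold. All-gene values used genes with at least 100 counts in both groups together, and the computation was tested on simulated data. Genes named were the 8 enzymes, Ppib, Tbp, Apoe and, in each list, the gene with the most counts and those with the highest and the lowest ratio among genes with at least 100 counts. Nrf1, Hmox1, Gata1, Klf1, Apex2, Bccip and the alpha globins were named in addition, after their values were seen. The enzymes and the lists were chosen with earlier results of these data known. Gene coordinates and promoter sequences are from RefSeq on GRCm38.p6 and strands and exons from GENCODE on GRCm38. Alternatives were other scalings, pseudocounts, minimum counts and length neighbours, and the lists relative to genes of like length were added after seeing the data. Computation used Python 3.11.15 with scipy 1.17.1, numpy 2.4.6 and pandas 2.3.3, and figures were drawn with matplotlib 3.10.9.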

Additional observations from a re-analysis of the deposited data

Results flagged for a closer look

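Control replicate 3 had 64.33% of its clean reads mapped to genes, while the next lowest of the 7 control libraries had 74.39%. The gap was 0.588 of the range of the group, above the limit of 0.568 for 7 libraries, which chance alone passes in about 1 in 20 groups. The rule was applied to clean reads and to both mapping rates in each group, so at least 1 flag by chance is likelier than that. Control replicate 3 also had the fewest clean reads and gave 9.12% of the mapped read pairs of the control group. Its part in the values of the enzymes was not tested, since genes were deposited as group sums.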

How the results depend on the processing

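No paired analysis was possible because the gene values are 1 sum per group and carry no replicate number, and leaving out single libraries was not possible for the same reason. Over 6 alternatives the log2 ratio ran from 0.52 to 1.23 for Alas1, 0.26 to 0.97 for Fech, 0.19 to 0.89 for Alad, 0.13 to 0.84 for Ppox, -0.12 to 0.59 for Alas2, -0.13 to 0.58 for Uros, -0.03 to 0.72 for Cpox and -0.38 to 0.33 for Urod. Of these alternatives 4 shift every gene by the same amount, so a kept sign there follows from the size of the ratio alone. The upper end of each range came from scaling by the sum of Ppib and Tbp, which was made up mostly of Ppib counts. The median of the 8 was 0.070 relative to the median of all genes, 0.076 relative to genes of like length, 0.13 with totals without the 50 most abundant genes, 0.78 scaled by Ppib and Tbp and 0.29 without Alas2. The number above 0 was 4 relative to like length. The number over 25% higher was 1 relative to the median of all genes, 1 relative to like length and 8 scaled by Ppib and Tbp, by construction, since that scaling adds 0.55 to every log2 ratio. Alas2 minus Alas1 was -0.60 relative to like length. Without the correction for length, the count of Alas1 was 1.62 times that of Alas2 in the control and 2.52 times with erythrodiol. The share of all genes over 20% lower was 15.7% with no minimum of counts, and the share past 2-fold was 3.15% with a minimum of 10 counts and 9.23% with none. With 200 neighbours in length, Alas1 stood 0.56 above them. Relative to genes of like length, an alternative added after seeing the data, the median of the list was 0.073 for heme transport, -0.060 for heme degradation, 0.11 for regulators of Alas1, -0.0087 for liver hemoproteins, -0.032 for erythroid, -0.85 for granulocyte, -0.37 for platelet, -0.79 for Kupffer cell and 0.22 for hepatocyte markers. The counting interval of Uros, from -0.05 to 0.12, held 0, and no interval here covers the spread between pools.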
